A study of Homo sapiens with 12 samples.

Results

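The 6 RNA sequencing libraries of the human mesothelioma cell line NCI-H226 (H226), out of 12 libraries in the series, compared cells given the TEAD inhibitor SWTX-143 with cells given its vehicle DMSO. They were chosen by their labels alone, 3 libraries labelled H226 with 100 nM SWTX-143 and 3 labelled H226 with DMSO, and every gene with enough counts was described. The other 6 libraries came from the kidney cancer line ACHN under the same 2 treatments, and they serve here only to show where H226 differed. Exposure lasted overnight, so each group is a single time point at a single dose. Per the submitters H226 and ACHN lack functional NF2, a state that the DMSO cells share with the treated ones. H226 is an established tumour line, and nothing in the labels tells whether replicates were independent cultures or repeats of the same material. The p-values therefore measure no more than the spread among these libraries, and that spread may be technical.

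TEAD proteins are DNA-binding transcription factors that have little activity until the coactivators YAP or TAZ bind them. The Hippo kinases keep YAP and TAZ out of the nucleus, and merlin, the product of NF2, helps to switch those kinases on. Mesothelioma, a tumour of the lining of the pleura and peritoneum, often loses NF2, which leaves YAP and TAZ free to drive TEAD target genes. SWTX-143 is named by the submitters as an irreversible inhibitor of TEAD.

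The 6 libraries held between 9690980 and 11262663 counts, and 13484 of 27064 listed genes had enough counts to be tested. Of 17 genes that mark mesothelium, 16 were tested, and KRT19, UPK3B, ALDH1A2 and CALB2 had between 30965 and 79362 counts each over the DMSO libraries, while TCF21 had 0. NF2 itself had 0 counts in DMSO and 1 in treated cells. Among markers of other cells, COL1A1, PDGFRB and ACTA2 had 33574, 2351 and 1205 counts over the DMSO libraries. Most others were low, with PTPRC, CD3D, MS4A1, EMCN and EMX2 at 0 counts in all 6 libraries. Summed levels of 10 kidney markers nevertheless ran from 10.5 to 12.6 CPM (counts scaled to library size) in DMSO and from 16.9 to 20.3 CPM in treated libraries, of which LHX1 made up most. The sums of 9 immune markers were 6.47 to 7.98 and 7.89 to 11.2 CPM, those of 6 endothelial markers 5.57 to 5.99 and 6.62 to 7.72 CPM, and those of 9 fibroblast and muscle markers, nearly all of it COL1A1, 1181 to 1198 and 1224 to 1265 CPM. Their part in the results was not tested. Treated replicate 3 differed from treated replicates 1 and 2 by more than those differed from each other, with 2.98 and 3.27 against 1.41 chi-square per degree of freedom. The 222 genes with transcripts over 12000 bases had a median log2 ratio to the DMSO mean of 0.11 there, against −0.06 and −0.10 in treated replicates 1 and 2 and from −0.09 to 0.08 in the DMSO libraries.

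SWTX-143 shifted a large share of the H226 transcriptome by small amounts. Of 13484 tested genes, 5486 (40.7%) passed the test, which was edgeR's quasi-likelihood F test with a Benjamini-Hochberg adjusted p under 0.05. Genes that passed are written below as fallen or risen, or as called lower or higher: 2919 (21.6%) fell and 2567 (19%) rose. The split depends on scaling, since 2324 fell and 3283 rose under upper-quartile scaling and 2419 fell and 3110 rose under library size alone. The total depends on the method, since DESeq2 called 2094 genes lower and 1668 higher and kept 3750 of the 5486 calls. Between 1.5-fold and 2-fold, 365 fell and 482 rose, most other calls were smaller, and 12 genes fell and 13 rose by more than 4-fold. Beyond 2-fold, 123 genes (0.912% of those tested) fell and 219 (1.62%) rose.

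Among genes with many reads the changes leaned downward. Of 265 genes above 500 CPM, 76 fell and 60 rose, and of 1948 between 100 and 500 CPM, 689 fell and 388 rose. Between 1 and 5 CPM the balance was the other way, with 144 of 2355 lower and 399 higher. The genes called lower held 35.3% of normalised counts in DMSO and 29.3% in treated cells, and those called higher 18.7% and 23.3%. The plot of change against level shows the spread narrowing as level rises, with CTGF, NPPB, CYP24A1, SKP2 and CYR61 far below the main cloud at levels where few other genes moved by that much.

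**Figure D1:**
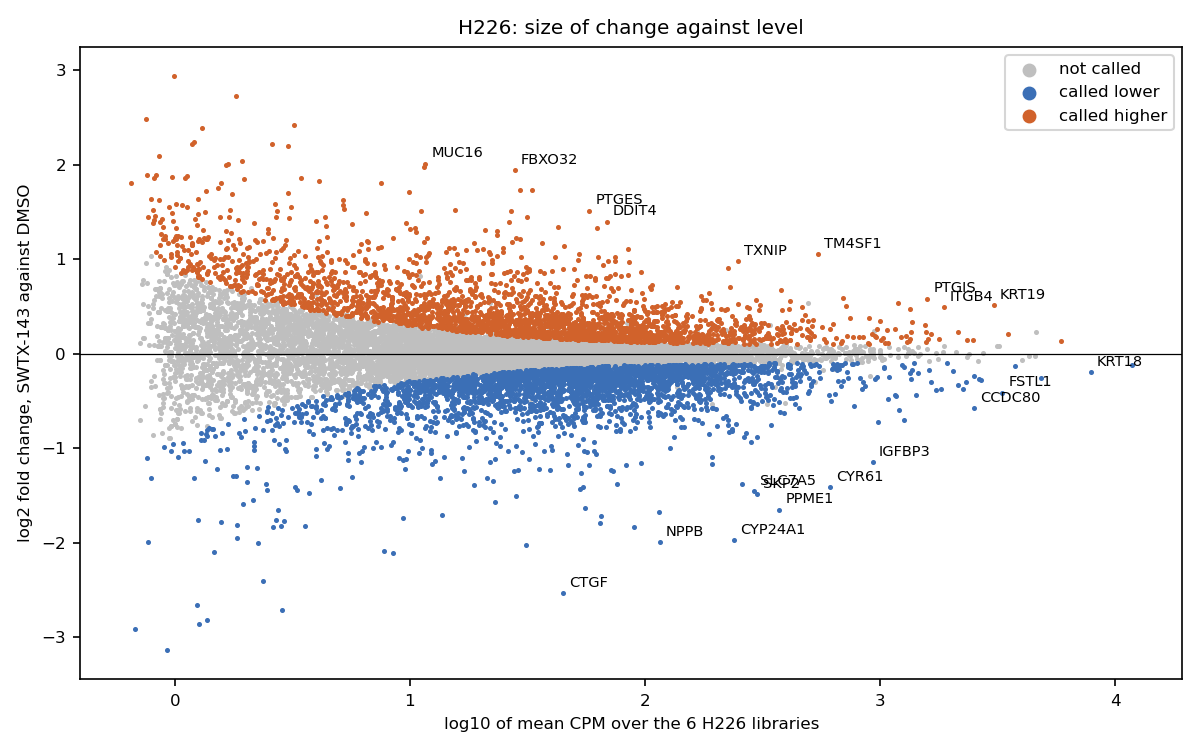
Each point is 1 of the 13484 tested genes, placed by the log10 of its mean CPM over the 6 H226 libraries (x axis) and its log2 fold change under SWTX-143 (y axis). Blue points were called lower (2919), orange higher (2567) and grey points were not called; CTGF lies at −2.53 and KRT18, near the right edge, at −0.19.

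Among genes averaging at least 5 CPM, the largest fall was in CTGF (CCN2), a secreted matricellular protein and a standard readout of YAP activity, and ANKRD1 and THBS1 came next to it. The stretch before the start site of these genes is shown because each holds the core of the TEAD binding motif, GGAATG. The windows are the 250 bases before the annotated start, from RefSeq on GRCh38.p14, 5′ to 3′ in the direction of transcription, with matches to GGAATG in capitals. They lie at chr6:131951373-131951622, minus strand for CTGF, chr10:90921088-90921337, minus strand for ANKRD1 and chr15:39580829-39581078, plus strand for THBS1.
CTGF: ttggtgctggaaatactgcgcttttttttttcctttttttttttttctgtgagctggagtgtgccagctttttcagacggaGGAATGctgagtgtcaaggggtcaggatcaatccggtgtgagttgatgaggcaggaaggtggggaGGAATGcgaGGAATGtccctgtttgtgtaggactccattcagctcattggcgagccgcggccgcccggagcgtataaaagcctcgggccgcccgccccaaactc
ANKRD1: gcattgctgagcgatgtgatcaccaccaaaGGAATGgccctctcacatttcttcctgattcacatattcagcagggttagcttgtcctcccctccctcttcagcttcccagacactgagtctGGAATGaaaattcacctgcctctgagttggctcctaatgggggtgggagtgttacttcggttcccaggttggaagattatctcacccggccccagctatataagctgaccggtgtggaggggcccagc
THBS1: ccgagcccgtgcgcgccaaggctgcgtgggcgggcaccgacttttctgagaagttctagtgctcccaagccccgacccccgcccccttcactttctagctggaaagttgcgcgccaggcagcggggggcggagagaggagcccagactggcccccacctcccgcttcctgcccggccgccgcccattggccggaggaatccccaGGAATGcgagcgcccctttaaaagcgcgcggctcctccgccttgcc
CTGF had 3 matches, beginning 169, 104 and 95 bases before the start, ANKRD1 had 2, at 220 and 128 bases, and THBS1 had 1, at 46 bases. GGAATG, searched on both strands of windows from 250 bases before to 50 bases after the start, was present for 1153 of 10623 tested genes with a window (10.9%). It was present in 7 of 16 windows of a published list of YAP/TEAD targets (43.8%), in 4 of 20 among the 25 largest falls and in 0 of 18 among the 25 largest rises. Among genes lower by more than 2-fold it was found in 13.3% of 83 windows, and among those higher by more than 2-fold in 10.96% of 146. Among all genes called lower it was found in 11.3% of 2345 windows, and among those called higher in 10.2% of 1992. The share in the 25 largest falls was not particular to them. GGAATG was in 17.6% of 51 windows of the replication genes below and in 19.4% of 36 windows of the interferon genes, most of which rose. A match is a run of letters and not a measured binding site.

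CTGF stood at 69.0, 83.2 and 76.1 CPM in the 3 DMSO libraries and at 14.1, 11.8 and 13.6 CPM in the treated ones. All treated values lay far below all DMSO values, a 5.78-fold fall (log2 fold change −2.53 ± 0.08, SE, edgeR adjusted p = 1.83e-29, n = 3 libraries per group here and throughout). THBS1, which encodes the matrix glycoprotein thrombospondin-1, went from 14.4, 12.8 and 14.2 to 3.26, 2.72 and 3.57 CPM (−2.11 ± 0.15). ANKRD1, a nuclear ankyrin-repeat protein of muscle and stressed epithelium, went from 11.1, 14.0 and 12.5 to 3.17, 2.89 and 2.77 CPM (−2.09 ± 0.15). Neither gene had overlapping groups. CYR61 (CCN1), the matricellular relative of CTGF, stood at 857, 923 and 883 CPM in DMSO and 339, 326 and 335 CPM after treatment (−1.41 ± 0.04).

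The 25 largest falls also held secreted peptides and enzymes. NPPB, the B-type natriuretic peptide, stood at 186, 195 and 174 CPM in DMSO and 45.2, 48.7 and 45.8 CPM in treated libraries (−1.99 ± 0.05, adjusted p = 3.68e-36). ADM, the vasodilator peptide adrenomedullin, went from 139.7, 145 and 136 to 40.3, 38.8 and 38.9 CPM (−1.83 ± 0.05), and INHBA, the subunit of activin A, from 97.3, 103 and 98.7 to 30.7, 26.9 and 33.1 CPM (−1.72 ± 0.06). In these 3 genes every treated library lay under every DMSO library, as the choice required. CYP24A1, the hydroxylase that inactivates vitamin D, fell from 380.5, 376 and 388 to 90.4, 93.5 and 109 CPM (−1.97 ± 0.05), with treated replicate 3 the highest of its group. F3, the tissue factor that starts blood coagulation, fell from 174 ± 2.71 to 54.6 ± 5.45 CPM (mean ± SD, −1.67 ± 0.05), and the secreted protease ADAMTS1 from 110.4 ± 2.14 to 42.5 ± 1.61 CPM (−1.38 ± 0.05).

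The cell cycle ubiquitin ligase subunit SKP2, which marks CDK inhibitors for destruction, stood at 444, 452 and 423 CPM in DMSO and at 162, 156 and 154 CPM after treatment (−1.49 ± 0.04, adjusted p = 5.24e-35). The 6 values formed 2 tight clusters. PPME1, a methylesterase of the phosphatase PP2A, fell from 556, 564 and 572 to 178, 183 and 178 CPM (−1.65 ± 0.04), although it overlaps C2CD3 and the counting gives no strand. SLC7A5, the large neutral amino acid transporter, fell from 414, 432 and 436 to 152, 157 and 159 CPM (−1.45 ± 0.04). The helicase DDX20 fell from 83.7 to 27.1 CPM (−1.63 ± 0.06), the homeobox factor MSX1 from 34.4 to 11.6 CPM (−1.57 ± 0.09), the potassium channel KCND3 from 50.3 to 12.3 CPM (−2.02 ± 0.08) and TRIM58 from 373 to 143 CPM (−1.38 ± 0.05). The remaining members of the 25 largest falls were C1orf198 (−1.79), KRT4 (−1.73), ANKRD2 (−1.70), ZNF714 (−1.51), JPH1 (−1.43, overlapping GDAP1), LHX4 (−1.41, overlapping ACBD6), FAM212B (−1.41) and MCM10 (−1.39).

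**Figure D2:**
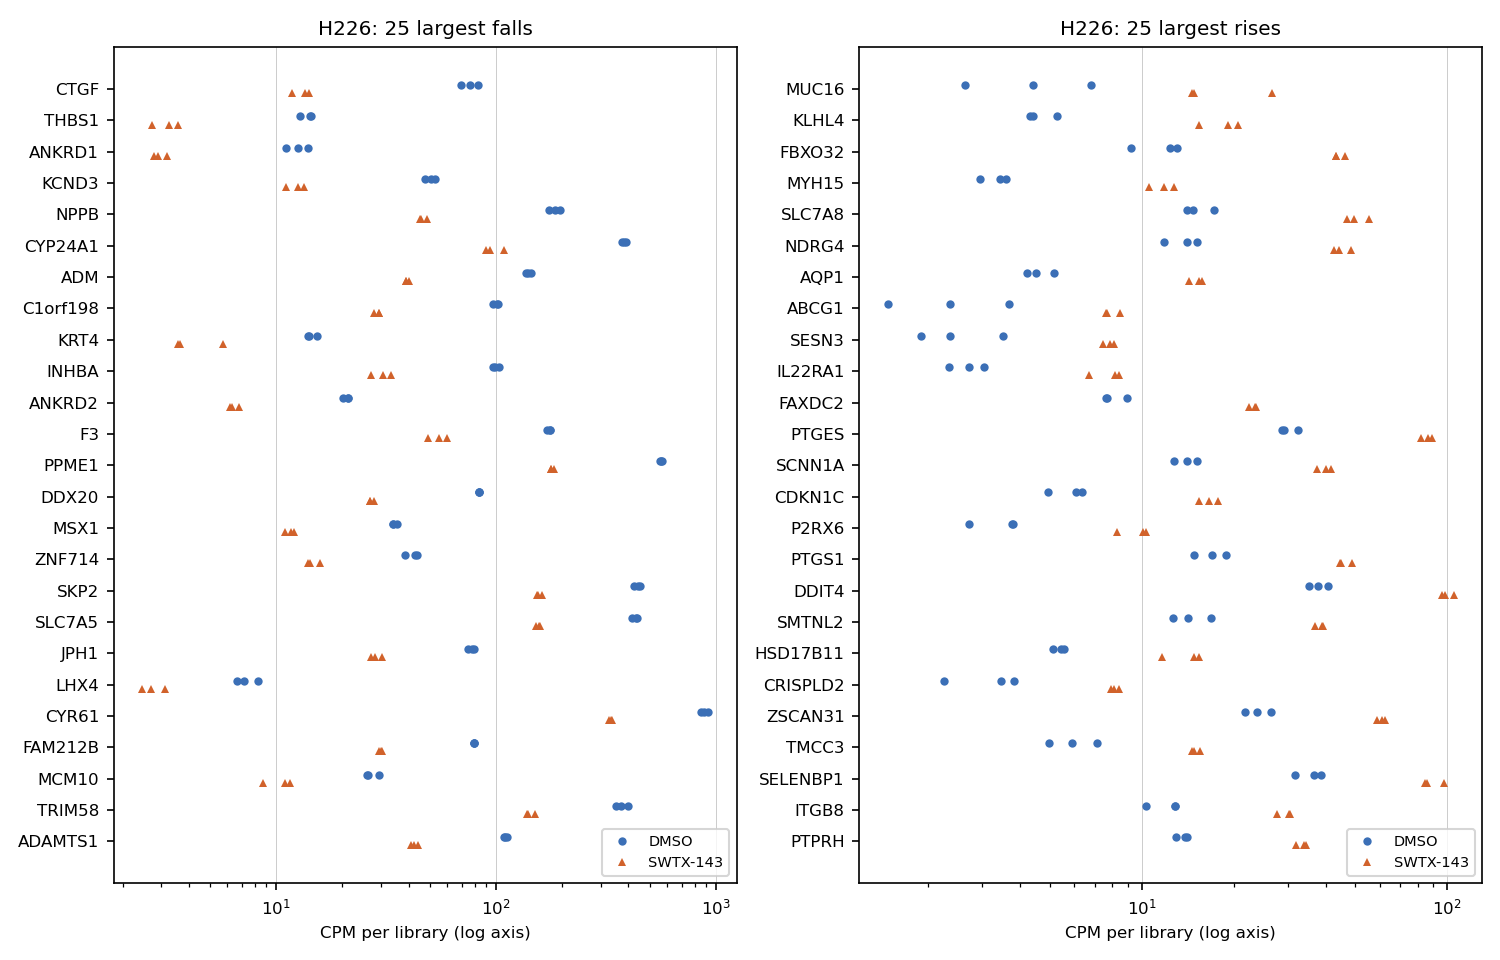
CPM in each H226 library (log axis) for the 25 largest falls (left) and the 25 largest rises (right) among called genes averaging 5 CPM or more without overlap between groups. Circles are the 3 DMSO libraries and triangles the 3 treated ones; CTGF heads the falls, and MUC16, which heads the rises, has the widest spread within a group.

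Among the rises named by size were 3 enzymes of prostaglandin synthesis, whose common direction follows from that choice. PTGS1, the cyclooxygenase COX-1, stood at 17.0, 14.9 and 18.9 CPM in DMSO and 44.8, 48.7 and 44.5 CPM after treatment (1.45 ± 0.08, adjusted p = 3.34e-22). PTGES, which makes prostaglandin E2 from the cyclooxygenase product, went from 28.7, 32.4 and 29.2 to 86.7, 89.3 and 82.1 CPM (1.51 ± 0.06), and PTGIS, which makes prostacyclin from it, from 1248, 1274 and 1289 to 1943, 1886 and 1871 CPM (0.58 ± 0.04). The lowest treated value exceeded the highest DMSO value for each enzyme, a condition of the choice for PTGS1 and PTGES. No treated library stood apart from the other 2.

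Other genes among the 25 largest rises have varied roles. FBXO32 (atrogin-1), a ubiquitin ligase subunit of wasting muscle, stood at 13.02, 9.24 and 12.4 CPM in DMSO and at 43.3, 46.1 and 43.2 CPM after treatment (1.94 ± 0.09, adjusted p = 1.22e-24). CDKN1C (p57), an inhibitor of cyclin-dependent kinases, rose from 6.38, 6.07 and 4.94 to 17.8, 16.6 and 15.4 CPM (1.51 ± 0.12). DDIT4 (REDD1), which restrains the growth kinase complex mTORC1, rose from 40.8, 37.6 and 35.2 to 96.3, 105 and 98.3 CPM (1.40 ± 0.06). In all 3 genes the groups were clear of each other, as the choice required. SLC7A8, another neutral amino acid transporter, rose from 14.1, 14.7 and 17.2 to 49.6, 55.6 and 47.0 CPM (1.73 ± 0.08), opposite to SLC7A5. The water channel AQP1 rose from 4.62 to 15.2 CPM (1.71 ± 0.13), the sterol exporter ABCG1 from 2.50 to 7.93 CPM (1.63 ± 0.19), the epithelial sodium channel subunit SCNN1A from 14.0 to 39.7 CPM (1.51 ± 0.08, overlapping LTBR) and the integrin subunit ITGB8 from 11.998 to 29.6 CPM (1.30 ± 0.09). KLHL4 (1.98), MYH15 (1.80), NDRG4 (1.73), SESN3 (1.58), IL22RA1 (1.52), FAXDC2 (1.52, overlapping CNOT8), P2RX6 (1.49, overlapping SLC7A4 and THAP7-AS1), SMTNL2 (1.39), HSD17B11 (1.38), CRISPLD2 (1.37), ZSCAN31 (1.34), TMCC3 (1.32), SELENBP1 (1.32) and PTPRH (1.30) made up the rest of the 25 apart from MUC16.

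MUC16, the mucin measured in blood as CA125, had the largest fitted rise among genes averaging at least 5 CPM, and its libraries were uneven. Its levels were 6.83, 2.63 and 4.41 CPM in DMSO and 14.6, 14.8 and 26.6 CPM in treated cells (2.01 ± 0.48, adjusted p = 0.0326). Treated replicate 3 lay well above the other treated libraries, and its transcript is very long. The call was lost without filtering and on leaving out any DMSO library or treated replicate 1 or 2, with adjusted p-values from 0.0516 to 0.104, and it held without treated replicate 3.

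Ranking by change in CPM rather than by fold brought in abundant genes. KRT18, an epithelial keratin, fell from 7999, 8503 and 8669 to 7258, 7424 and 7316 CPM (−0.19 ± 0.04), while KRT19 rose from 2433, 2559 and 2526 to 3529, 3687 and 3517 CPM (0.51 ± 0.04), in opposite directions and without overlap. The fall of the KRT18 partner KRT8 (−0.12 ± 0.04), annotated as overlapping KRT18, was not called under upper-quartile scaling (adjusted p 0.0584 to 0.0937 there and without DMSO replicate 3), and both keratins have many pseudogenes. Among secreted proteins in this ranking, falls were called in CCDC80 from 3016 to 2025 CPM (−0.57 ± 0.04), FSTL1 from 3778 to 2842 CPM (−0.41 ± 0.04), the growth factor carrier IGFBP3 from 1283 to 579 CPM (−1.15 ± 0.04) and the hyaluronan-degrading CEMIP from 1572 to 966 CPM (−0.70 ± 0.04). Other large losses were in actin (ACTB, −0.26 ± 0.04), HSPA8 (−0.37 ± 0.04) and CYR61. Beside KRT19, the largest gains were in the laminin receptor subunit ITGB4 from 1549 to 2181 CPM (0.49 ± 0.04), PTGIS, the retinaldehyde dehydrogenase ALDH1A3 from 3249 to 3749.9 CPM (0.21 ± 0.04), the superoxide dismutase SOD2 from 973 to 1408 CPM (0.53 ± 0.04), the autophagy receptor SQSTM1 from 1123 to 1557 CPM (0.47 ± 0.04, overlapping MGAT4B), the tetraspanin-like TM4SF1 from 355 to 735 CPM (1.05 ± 0.05), ferritin heavy chain FTH1 (0.31 ± 0.04), the complement protein C3 (0.34 ± 0.04) and the elongation factor EEF1A1 (0.13 ± 0.04). The EEF1A1 call was lost without treated replicate 1 (adjusted p = 0.093), and EEF1A1 and FTH1 have many processed pseudogenes.

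Genes of the Hippo pathway moved in H226 as well, some downward and some upward. Of 35 tested members, 14 fell (40.0%, against 21.6% of all tested genes) and 5 rose (14.3%, against 19%). The count of rises ran from 2 to 9 across the alternatives run and was 3 with DESeq2. The median log2 fold change was −0.09, against −0.001 for all tested genes. Every member count below is to be read beside the 21.6% lower and 19% higher of all tested genes. The coactivator TAZ (WWTR1) rose from 40.7 to 52.2 CPM (0.36 ± 0.06), and the rise of YAP1 from 176 to 193 CPM (0.13 ± 0.04) was lost without DMSO replicate 3 or treated replicate 1 (adjusted p 0.0521 and 0.119). TEAD4 fell from 68.4 to 42.3 CPM, TEAD1 from 426 to 333 CPM and TEAD3 from 36.1 to 27.4 CPM. TEAD2 rose from 7.54 to 9.85 CPM, a call lost with DESeq2 and without DMSO replicate 2 or treated replicate 1 (adjusted p 0.0545 to 0.108). The kinase LATS2 (−0.77 ± 0.05) and the kinases STK3 (−0.29 ± 0.07) and STK4 (−0.25 ± 0.05) that act upstream of it fell, STK38L, a relative of LATS2, rose (0.58 ± 0.07), and the scaffolds AMOTL2 (−0.83 ± 0.04), WWC2 (−0.70 ± 0.05) and FRMD6 (−0.46 ± 0.04) fell. Of the 22 published YAP/TEAD targets 16 fell and 0 rose, and their summed level in treated libraries was 65.7% to 68.2% of the DMSO mean.

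The machinery that copies DNA fell almost throughout. Of 59 tested replication genes, 51 fell and 0 rose, with a median of −0.55. The origin licensing factors had 14 of 16 lower, the fork helicase and its activators 13 of 14, the polymerases, clamp and ligation factors 18 of 22, and the chromatin assembly factors of the fork 6 of 7. MCM10, which helps to start the fork helicase, went from 25.9, 29.3 and 26.1 to 10.9, 8.68 and 11.5 CPM (−1.39 ± 0.10). UHRF1, which passes DNA methylation to the new strand, went from 54.8, 56.1 and 55.3 to 24.0, 22.7 and 24.2 CPM (−1.23 ± 0.07), and the licensing factor CDC6 from 77.6, 84.7 and 81.5 to 41.3, 38.7 and 39.5 CPM (−1.03 ± 0.06). The groups were separate for these 3 genes, as in 48.7% of all tested genes, and each was lower by more than 2-fold. Falls were also called in MCM3 (−0.77 ± 0.05), the fork factors GINS2 (−1.10 ± 0.10, overlapping GSE1), TIPIN (−1.05 ± 0.11) and CLSPN (−0.65 ± 0.06), the sliding clamp PCNA (−0.51 ± 0.06), the flap nuclease FEN1 (−0.57 ± 0.06, overlapping FADS2) and the maintenance methyltransferase DNMT1 (−0.56 ± 0.05). Fewer cells in S phase and less of these RNAs per cell cannot be told apart in bulk RNA.

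The promoter of MCM3 is shown as an example of a replication gene whose window matches the motif of E2F, the factor family that switches these genes on before S phase. The letters searched were TTTCCCGC and TTTGGCGC on both strands, and the match is in capitals. The 250 bases lie at chr6:52284743-52284992, minus strand, from RefSeq on GRCh38.p14.
MCM3: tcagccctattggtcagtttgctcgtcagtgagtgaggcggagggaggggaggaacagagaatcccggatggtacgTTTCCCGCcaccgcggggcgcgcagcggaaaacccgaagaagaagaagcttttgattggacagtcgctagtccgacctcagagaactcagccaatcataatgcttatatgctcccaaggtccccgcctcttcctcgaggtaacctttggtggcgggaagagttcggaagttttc
The match began 174 bases before the start and is a run of letters, not a measured binding site. E2F letters were present in 18 of 51 replication windows (35.3%), in 3.74% of the windows of all tested genes, in 10.8% of windows for genes lower by more than 2-fold and in 1.37% for genes higher by more than 2-fold.

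Upstream of replication, the genes that carry cells from G1 into S moved in 2 directions. Of 12 cyclins, kinases and their activators including SKP2, 10 fell and 1 rose. CCND1, the G1 cyclin, fell from 338, 336 and 336 to 224, 226.1 and 233 CPM (−0.56 ± 0.04), CDK2 from 92.9 to 58.7 CPM (−0.66 ± 0.05) and the phosphatase CDC25A from 19.1 to 7.66 CPM (−1.32 ± 0.12). E2F1 fell from 29.3, 29.2 and 28.4 to 13.5, 15.3 and 19.8 CPM (−0.83 ± 0.09), with treated replicate 3 the highest of its group and still below every DMSO library, and E2F7 (−0.81 ± 0.10) and E2F4 (−0.36 ± 0.05) fell with it. Of 6 CDK inhibitor genes, 0 fell and 4 rose. Beside CDKN1C these were CDKN2B (0.41 ± 0.06), CDKN2C (0.25 ± 0.06) and CDKN1A (p21, 0.11 ± 0.04), the last not called with DESeq2 and without DMSO replicate 1 or 2 or treated replicate 1 or 2 (adjusted p 0.0674 to 0.302).

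The mitosis genes had a median nearer 0 than the replication genes. Of 51, 20 fell (39.2%, against 21.6% of all tested genes) and 4 rose (7.84%, against 19%), with a median of −0.10. The summed level of the spindle and motor group was 92.7% to 96.0% of the DMSO mean in treated libraries. The 11 cytokinesis and exit genes had 6 lower and 1 higher, and their mean summed level went from 2110 to 1705 CPM. The cytokinesis scaffold ANLN fell from 906, 955 and 902 to 641, 623 and 617 CPM (−0.55 ± 0.04) and the central spindle kinesin KIF23 from 194 to 145 CPM (−0.42 ± 0.04). PKMYT1 (−0.76 ± 0.09, overlapping PAQR4 and KREMEN2) and WEE1 (−0.37 ± 0.07), which hold CDK1 inactive, fell, and CDC25B, which activates it, rose (0.33 ± 0.06). KIF20A rose as well (0.21 ± 0.04), although it overlaps BRD8 and CDC23.

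**Figure D3:**
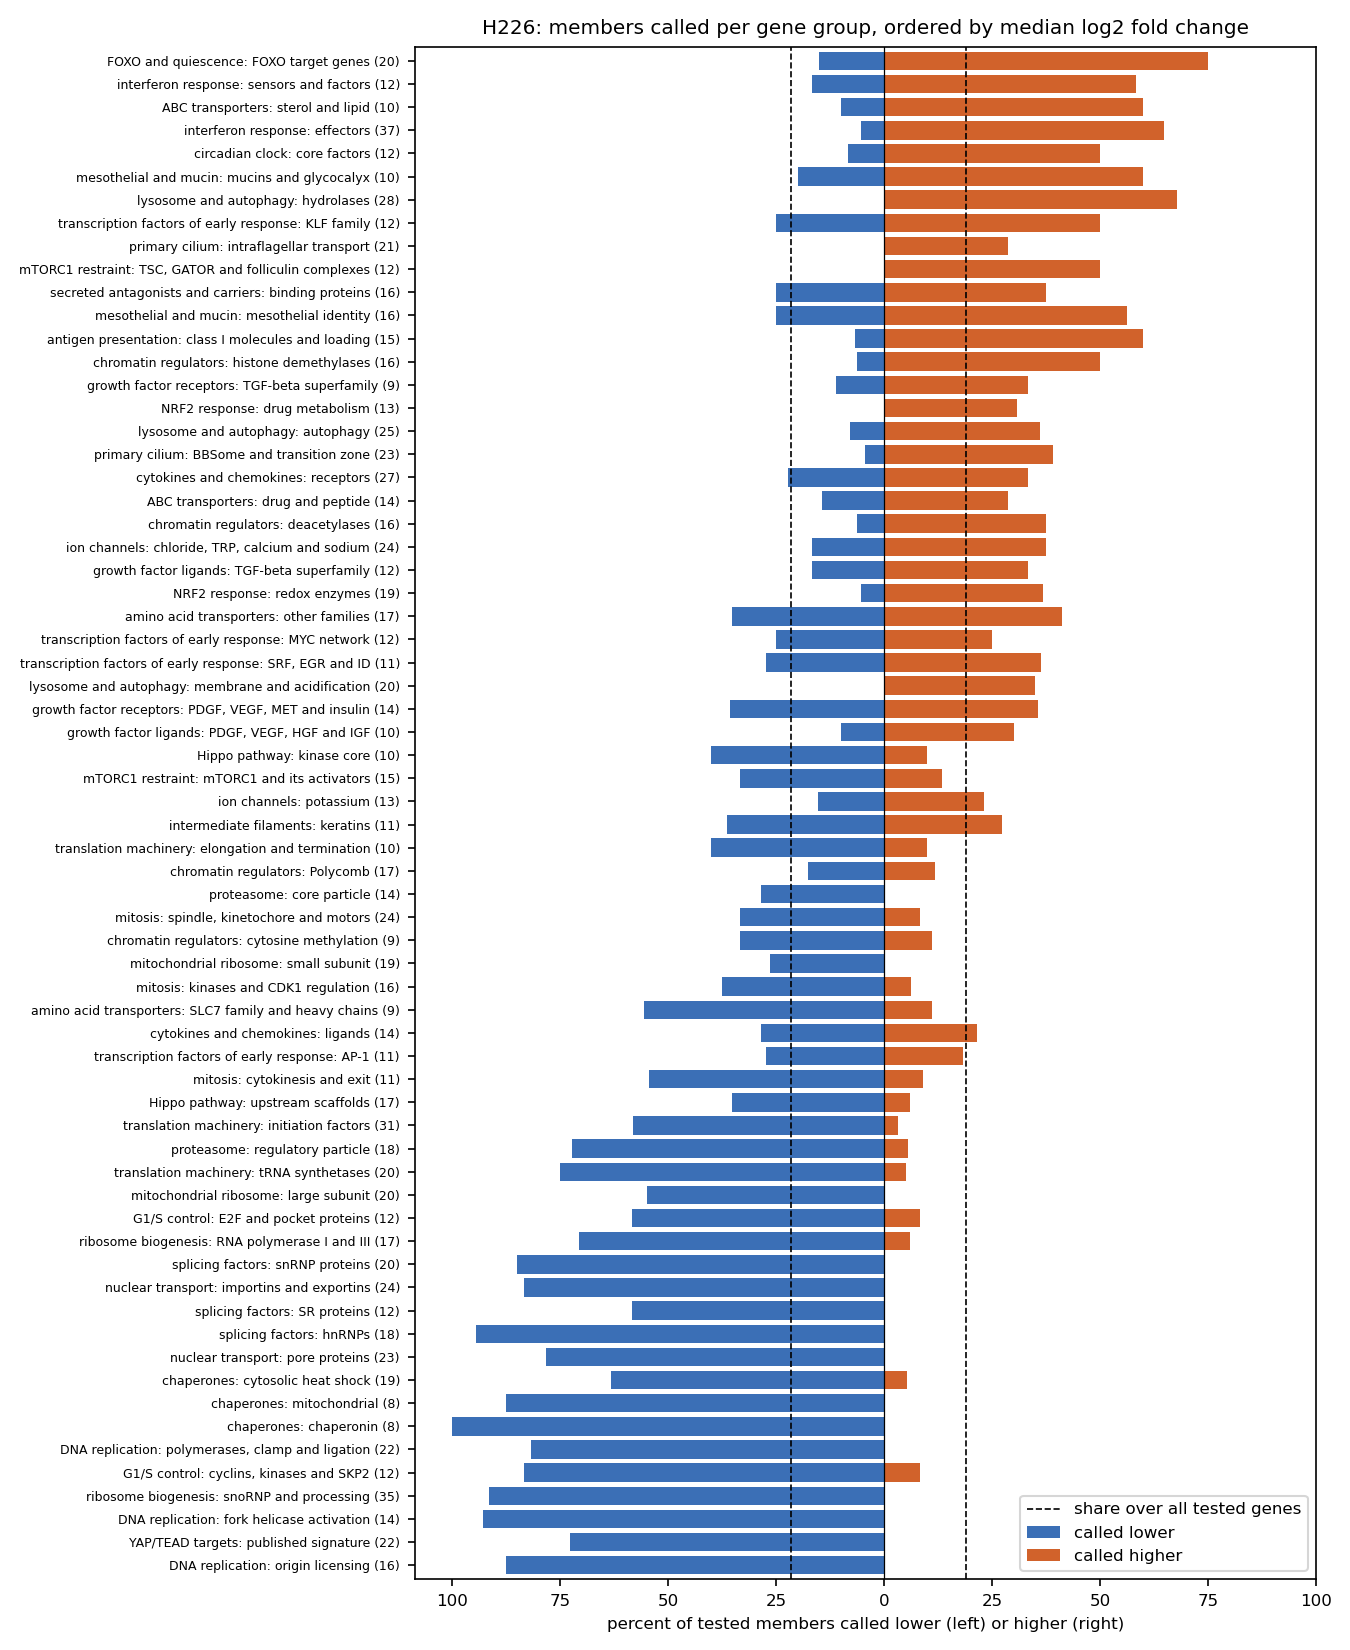
Percent of the tested members of each gene group (number tested in brackets) that were called lower (blue, left of 0) or higher (orange, right of 0), ordered by median log2 fold change, for groups shown with 8 or more tested members. Dashed lines mark the shares over all tested genes, 21.6% lower and 19% higher; all 8 chaperonin subunits fell and 15 of 20 FOXO target genes rose.

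Most tested FOXO target genes rose. FOXO factors are transcription factors that insulin and growth factor signalling keep out of the nucleus, and their targets slow growth and proliferation. Of 4 FOXO genes, 3 rose: FOXO4 from 5.29 to 10.2 CPM (0.94 ± 0.14), FOXO3 from 28.5 to 43.4 CPM (0.61 ± 0.07) and FOXO6 from 12.006 to 17.3 CPM (0.55 ± 0.12). Of 20 target genes, 15 rose and 3 fell. PIK3IP1, a membrane inhibitor of PI3 kinase, stood at 2.07, 0.997 and 1.16 CPM in DMSO and 3.54, 4.30 and 4.28 CPM after treatment (1.505 ± 0.25), low but without overlap. The members that fell included the receptor ERBB3, from 133, 133 and 132 to 59.1, 58.7 and 61.3 CPM (−1.15 ± 0.05), and the stress gene GADD45B from 65.2 to 28.9 CPM (−1.18 ± 0.06).

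Several brakes on mTORC1, the kinase complex that drives protein synthesis, rose. Of 5 inducible inhibitors 4 rose: DDIT4 and SESN3 (above), TXNIP from 176, 163 and 162 to 348, 336 and 305 CPM (0.98 ± 0.05) and SESN1 (0.29 ± 0.08, adjusted p = 0.0501 without DMSO replicate 3). TXNIP, which also restrains glucose uptake, was clear of the DMSO range in every treated library. Of 12 members of the TSC, GATOR and folliculin complexes and related inhibitors, 6 rose and 0 fell, among them TSC1 (0.39 ± 0.07), FLCN (0.23 ± 0.07) and FNIP1 (0.20 ± 0.06). Of 15 genes for mTORC1 and its activators, 5 fell (33.3%, against 21.6% of all tested genes) and 2 rose (13.3%, against 19%). RPTOR (−0.24 ± 0.06), MTOR (−0.25 ± 0.07) and the mTORC1 substrate EIF4EBP1 (−0.28 ± 0.06) were lower. The MTOR call was lost under library size alone and without treated replicate 1 (adjusted p 0.051 and 0.0524).

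Many genes for making ribosomes and proteins fell, with small changes per gene. Ribosome biogenesis had 44 of 52 lower and 1 higher (median −0.40). The pseudouridine synthase subunit DKC1 fell from 186, 193 and 175 to 108, 110.2 and 105 CPM (−0.78 ± 0.05), NOP2 from 94.6 to 55.9 CPM (−0.76 ± 0.06) and POLR1E, a subunit of the polymerase that transcribes ribosomal RNA, from 42.9 to 23.6 CPM (−0.87 ± 0.07). The 35 snoRNP and processing genes together stood at 72.9% to 75.0% of the DMSO mean in treated libraries. Translation factors and tRNA synthetases had 37 of 61 lower and 3 higher (median −0.15), with the synthetases at 15 lower of 20. The 10 elongation and termination genes had 4 lower and 1 higher (median −0.06), and their mean summed level was 11488 CPM in DMSO and 11990 CPM in treated libraries. The 1 called higher, EEF1A1, went from 5630 to 6157 CPM, a larger rise than that of the sum. Its call was lost without treated replicate 1. FARSB, which charges tRNA with phenylalanine, fell from 92.5, 105 and 93.8 to 60.1, 57.2 and 65.3 CPM (−0.68 ± 0.06), VARS (−0.56 ± 0.05), MARS (−0.44 ± 0.05) and FARSA (−0.44 ± 0.06) fell too, and so did the initiation factor subunit EIF3B from 440.5 to 332 CPM (−0.41 ± 0.04). Mitochondrial ribosomal proteins had 16 of 39 lower and 0 higher (median −0.12), among them MRPL3 (−0.40 ± 0.05) and MRPL4 (−0.45 ± 0.06), a count that was 11 under the least favourable scaling and 10 with DESeq2.

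Protein folding genes fell with them. All 8 subunits of the cytosolic chaperonin, a barrel that folds actin and tubulin, fell by log2 values from −0.25 to −0.51. CCT5 went from 420.1, 454 and 442 to 317, 306 and 300.1 CPM (−0.51 ± 0.04), and the group's sum in treated libraries was 74.8% to 78.4% of the DMSO mean. Of 19 cytosolic heat shock genes 12 fell and 1 rose, with STIP1, which links HSP70 to HSP90, from 323, 343 and 351 to 237, 225 and 221 CPM (−0.58 ± 0.04), its partner FKBP4 from 353 to 244 CPM (−0.54 ± 0.04) and HSP90AB1 from 2052 to 1583 CPM (−0.37 ± 0.04). Of 8 mitochondrial chaperones and proteases 7 fell, among them GRPEL1 (−0.56 ± 0.07), HSPA9 (−0.34 ± 0.04) and HSPD1 (−0.30 ± 0.04). The proteasome had 17 of 32 lower and 1 higher, mostly in the regulatory cap (13 of 18), with PSMC4 (−0.31 ± 0.05) and PSMD6 (−0.26 ± 0.05) among those that fell. These proteasome falls were small, and under other scalings 10 to 16 members were called lower.

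Genes of nuclear traffic, which carry proteins and RNA through the nuclear pore, and of splicing fell in most of their members. Of 23 nuclear pore genes 18 fell and 0 rose, among them SEH1L from 52.3, 52.8 and 50.8 to 30.9, 31.0 and 30.2 CPM (−0.76 ± 0.06) and NUP93 from 66.0 to 44.7 CPM (−0.56 ± 0.06). Of 24 importins, exportins and Ran cycle genes 20 fell and 0 rose, among them the main import receptor KPNB1 from 706, 763 and 740.2 to 557, 539.9 and 545 CPM (−0.43 ± 0.04), the GTPase RAN from 505 to 369 CPM (−0.45 ± 0.04) and RANBP1 from 108 to 71.6 CPM (−0.59 ± 0.05). The groups did not overlap in SEH1L or KPNB1, as in 48.7% of all tested genes. Among splicing factors, 17 of 18 hnRNP genes, 17 of 20 snRNP genes and 7 of 12 SR genes fell and 0 rose (median of all 50 −0.25). HNRNPAB fell from 206, 232 and 216 to 132, 128 and 134 CPM (−0.73 ± 0.05), SRSF7 from 97.4, 97.7 and 102 to 58.7, 59.4 and 62.5 CPM (−0.72 ± 0.05), the Sm ring protein SNRPF from 80.1 to 59.5 CPM (−0.43 ± 0.06) and U2AF2, which binds the polypyrimidine tract before exons, from 259 to 206 CPM (−0.33 ± 0.04). Many splicing factor genes have processed pseudogenes, so values of single members carry that uncertainty.

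**Figure D4:**
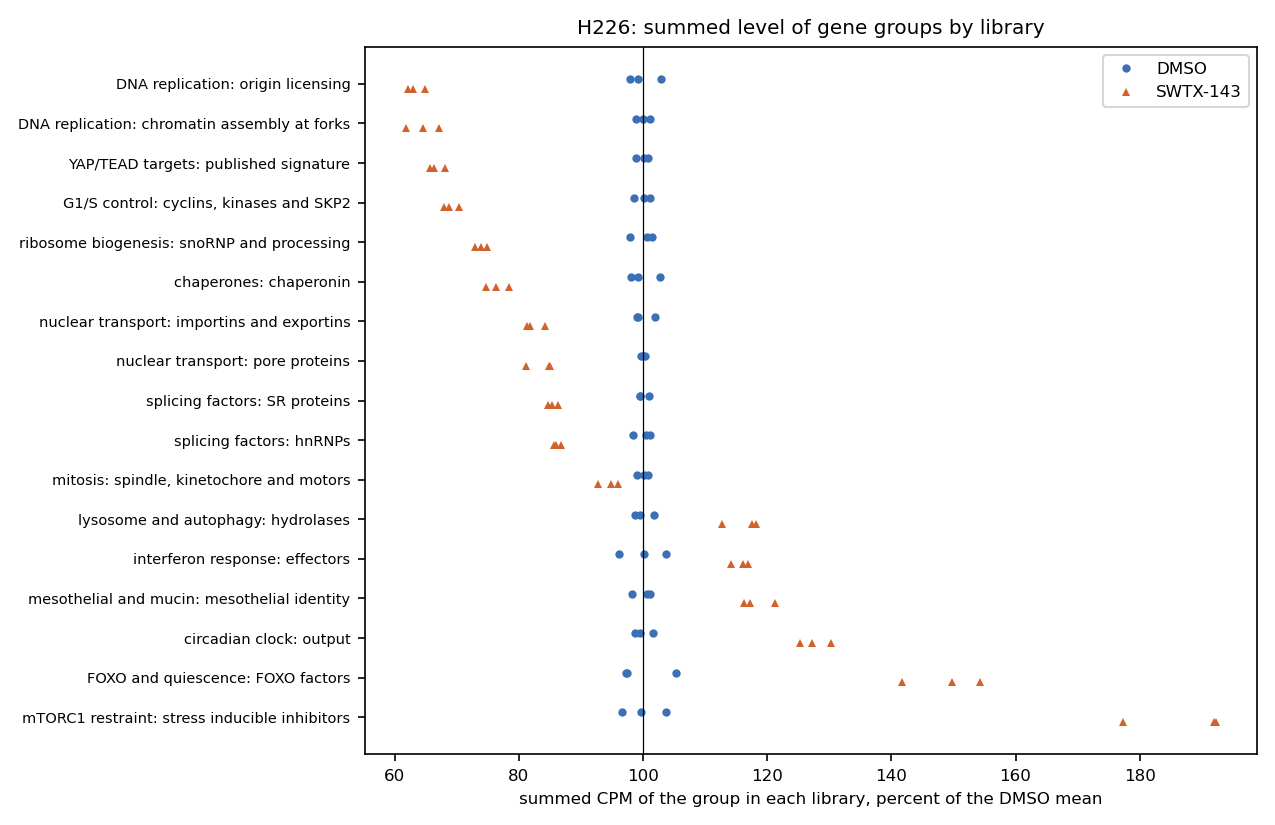
Summed CPM of gene groups in each H226 library, as percent of the mean of the 3 DMSO libraries (line at 100). Circles are DMSO and triangles SWTX-143 libraries; origin licensing genes sit near the low end, at 62.2% to 64.9%, and inducible mTORC1 inhibitors highest, at 177% to 192%, and sums weigh abundant members most.

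Antiviral genes moved the other way. Interferon-stimulated genes block viral replication and are switched on through the ISRE, a motif bound by STAT and IRF factors. Of 49, 31 rose and 4 fell, with a median of 0.35. IFIT1, which binds foreign RNA ends, stood at 22.1, 23.4 and 24.9 CPM in DMSO and 38.6, 37.4 and 34.8 CPM after treatment (0.66 ± 0.08). TMEM173 (STING), the adaptor of cytosolic DNA sensing, went from 18.3, 22.6 and 19.9 to 35.9, 36.2 and 38.8 CPM (0.87 ± 0.08). Neither overlapped between groups, as was so for 48.7% of all tested genes. SAMD9L (0.81 ± 0.11), SAMD9 (0.56 ± 0.04), PARP14 (0.44 ± 0.05), the RNA sensor IFIH1 (0.53 ± 0.08) and the factors IRF7 (0.57 ± 0.10) and IRF9 (0.51 ± 0.06) rose with them. The 37 effectors together stood at 114% to 117% of the DMSO mean in treated libraries, against 96.1% to 104% across the DMSO libraries.

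The window of IFIT1 is shown because it carries 2 copies of the ISRE letters (GAAA, any 2 bases, GAAA), here on the opposite strand and in capitals. It is the 250 bases at chr10:89392373-89392622, plus strand, from RefSeq on GRCh38.p14, and the copies begin 116 and 103 bases before the start.
IFIT1: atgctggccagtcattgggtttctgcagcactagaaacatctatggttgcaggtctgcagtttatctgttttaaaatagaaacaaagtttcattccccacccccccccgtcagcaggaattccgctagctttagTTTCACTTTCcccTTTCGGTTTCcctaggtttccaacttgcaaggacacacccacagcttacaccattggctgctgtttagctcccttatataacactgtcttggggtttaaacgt
These letters, on either strand, were present in 24 of 36 interferon gene windows (66.7%) and in 2.76% of the windows of all tested genes.

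Antigen presentation rose by small amounts in H226. Of 15 class I molecules and loading factors 9 rose and 1 fell, with HLA-E from 378, 383 and 387 to 470.2, 487 and 469 CPM (0.31 ± 0.04), the trimming peptidase ERAP2 from 65.1 to 87.6 CPM (0.43 ± 0.05) and tapasin (TAPBP, 0.29 ± 0.04) higher and the peptide transporter subunit TAP2 lower (−0.28 ± 0.05). Reads of HLA genes can be shared between family members. CD274 (PD-L1), the ligand that holds T cells back, fell from 25.1, 28.7 and 27.9 to 15.4, 14.6 and 14.2 CPM (−0.89 ± 0.09), against the direction of the class I genes.

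Cytokine and growth factor genes moved in both directions. Of 6 FGF ligands 4 fell and 1 rose, with FGF2 from 305 to 182 CPM (−0.75 ± 0.04, overlapping NUDT6), FGF1 from 2.92 to 0.964 CPM (−1.59 ± 0.29) and FGF9 from 3.21 to 1.10 CPM (−1.55 ± 0.32) lower. Both FGF1 and FGF9 were low. The FGF9 groups nearly met, at 3.59, 4.26 and 1.79 CPM in DMSO and 0.653, 1.67 and 0.982 CPM in treated libraries. Among EGF family ligands, NRG1 fell (−1.13 ± 0.18) and NRG2 rose (1.03 ± 0.19). In the TGF-beta family, the receptor TGFBR1 fell from 61.8 to 37.3 CPM (−0.73 ± 0.07) while TGFBR2 (0.31 ± 0.05) and the activin receptors ACVR1B (0.49 ± 0.07) and ACVR1 (0.42 ± 0.07) rose. FSTL3, a secreted antagonist of activin, fell from 442, 466 and 457 to 274, 309 and 304 CPM (−0.62 ± 0.04). The neuropilins parted, NRP2 falling from 149 to 95.6 CPM (−0.64 ± 0.05) and NRP1 rising from 19.5 to 30.6 CPM (0.64 ± 0.08). Of the cytokine genes, LIF fell (−0.73 ± 0.05) together with its receptor LIFR, from 415 to 285 CPM (−0.54 ± 0.04), and the TWEAK receptor TNFRSF12A from 174 to 109 CPM (−0.67 ± 0.05). The interleukin-1 receptor IL1R1 rose from 61.3, 60.2 and 60.3 to 108, 107 and 109 CPM (0.84 ± 0.05), as did CSF1 (0.55 ± 0.05) and TNFRSF1A (0.53 ± 0.04). Over all 41 cytokine and cytokine receptor genes 10 fell (24.4%) and 12 rose (29.3%), against 21.6% and 19% of all tested genes.

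Most of the mesothelial genes that passed the test were higher. Of 16 identity genes 9 rose and 4 fell, with the lectin ITLN1 from 24.0, 23.1 and 20.4 to 55.1, 51.7 and 45.7 CPM (1.17 ± 0.08) and LRRN4 from 239.6 to 316 CPM (0.40 ± 0.04) higher and thrombomodulin (THBD) from 18.5 to 10.1 CPM (−0.87 ± 0.10) lower. In the glycocalyx, PODXL (0.37 ± 0.04) and MUC1 (0.38 ± 0.07) rose and the syndecans SDC2, from 39.0, 42.3 and 40.0 to 18.3, 21.6 and 19.3 CPM (−1.04 ± 0.08), and SDC1 (−0.54 ± 0.05) fell. The B-type lamins LMNB2 (−0.53 ± 0.04) and LMNB1 (−0.46 ± 0.06) fell and LMNA rose (0.15 ± 0.04).

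Transcription factors of the early response moved in both directions, and within families as well. Of 46, 12 fell (26.1%) and 15 rose (32.6%), against 21.6% and 19% of all tested genes. The shares of the AP-1 family, 27.3% lower and 18.2% higher, lay near those of all tested genes. In the AP-1 family, with 3 of 11 lower and 2 higher, JUN fell from 158, 184 and 171 to 88.6, 84.3 and 84.3 CPM (−0.998 ± 0.05) and FOSL1 from 44.0 to 27.8 CPM (−0.66 ± 0.09), while JUNB (0.46 ± 0.07, overlapping HOOK2) and JUND (0.33 ± 0.05) rose. MYC, which drives growth genes, fell from 111, 121 and 116 to 84.3, 88.6 and 82.7 CPM (−0.45 ± 0.05), and MXD4, which competes with it for MAX, rose from 52.4, 54.9 and 52.9 to 92.9, 97.4 and 97.0 CPM (0.84 ± 0.05). The DMSO and treated ranges of JUN, MYC and MXD4 did not overlap, as in 48.7% of all tested genes. Of 12 KLF genes 6 rose and 3 fell, with KLF10 (0.62 ± 0.06) and KLF2 (0.59 ± 0.07) higher and KLF16 lower (−0.48 ± 0.08), and the differentiation inhibitors ID1 (0.47 ± 0.04), ID2 (0.45 ± 0.05) and ID3 (0.41 ± 0.05) rose.

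The clock genes showed more rises than falls. Of 12 core factors 6 rose and 1 fell, and of 6 output factors 4 rose and 1 fell, with a median over the 18 of 0.48. Of the 18 together 55.6% rose and 11.1% fell, against 19% and 21.6% of all tested genes. PER3 rose from 15.4, 17.3 and 16.6 to 27.0, 27.4 and 28.7 CPM (0.75 ± 0.08), PER1 from 7.30 to 13.1 CPM (0.84 ± 0.12) and the output factors DBP from 7.05 to 16.0 CPM (1.18 ± 0.12, overlapping SPHK2) and BHLHE41 from 11.5 to 21.3 CPM (0.87 ± 0.10). CRY1, a repressor of the clock, fell from 38.9 to 26.7 CPM (−0.54 ± 0.07). The labels give no clock time of the harvests.

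Lysosome genes rose by small amounts. Of 28 hydrolases 19 rose and 0 fell (median 0.23), among them the sialidase NEU1 from 77.7, 82.9 and 78.4 to 122, 121 and 114 CPM (0.58 ± 0.05), IDS (0.45 ± 0.06) and CTSA (0.35 ± 0.04). Of 25 autophagy genes 9 rose and 2 fell, with TFEB, the factor that switches lysosome genes on, from 7.10, 5.80 and 7.25 to 12.3, 10.2 and 9.91 CPM (0.69 ± 0.13), GABARAPL1 (0.52 ± 0.06) and the kinase ULK1 (0.48 ± 0.06) higher and ULK2 lower (−0.30 ± 0.05). Of 20 membrane and proton pump genes 7 rose and 0 fell. The shares higher were 36% of autophagy genes and 35% of membrane and proton pump genes, against 19% of all tested genes.

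Amino acid transporters moved in both directions. Of 26 tested, 11 fell (42.3%) and 8 rose (30.8%), against 21.6% and 19% of all tested genes. In the SLC7 family and its heavy chains 5 of 9 fell and 1 rose, with SLC3A2, the heavy chain that SLC7A5 and SLC7A8 share, from 188, 197 and 183 to 136, 126 and 129 CPM (−0.54 ± 0.05) and the cationic carrier SLC7A1 (−0.45 ± 0.05) lower. The glutamate carrier SLC1A3 fell from 338, 355 and 337 to 182, 188 and 188 CPM (−0.89 ± 0.04). SLC43A2, another neutral amino acid carrier, rose from 12.3 to 26.4 CPM (1.10 ± 0.09) and the glycine carrier SLC6A9 from 14.0 to 27.0 CPM (0.96 ± 0.09, overlapping CCDC24), while SLC43A3 fell (−0.34 ± 0.04).

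Whether H226 responded differently from ACHN was tested as the difference between their 2 treatment effects in a joint fit of all 12 libraries. That difference passed for 2286 of 14664 genes (15.6%), with the H226 effect the lower in 1423 and the higher in 863. The 25 falls and 25 rises compared here were picked for their size in H226, so the choice itself favours larger values in H226. CTGF had −2.53 ± 0.08 in H226 and −2.39 ± 0.06 in ACHN (difference −0.15 ± 0.11, adjusted p = 0.414), and CYR61 −1.41 ± 0.04 and −1.28 ± 0.04 (difference −0.14 ± 0.06, adjusted p = 0.0798), and neither difference passed the test. For SKP2 it did: SKP2 had −1.49 ± 0.04 in H226 and 0.00 ± 0.06 in ACHN (difference −1.495 ± 0.07, adjusted p = 1.03e-29). INHBA (−0.06 ± 0.05 in ACHN), DDX20 (0.04 ± 0.08), MSX1 (0.16 ± 0.16) and FAM212B (0.12 ± 0.18) likewise were not called in ACHN and differed between lines, and C1orf198 (−0.20 ± 0.06) was called there at a smaller size. Among rises, PTGES (0.01 ± 0.18 in ACHN, difference 1.499 ± 0.19), PTGS1 (−0.28 ± 0.32, difference 1.73 ± 0.32) and ITGB8 (−0.11 ± 0.06, difference 1.41 ± 0.11) differed between lines and were not called in ACHN. In ACHN DMSO libraries PTGS1 (1.47 CPM), FAM212B (4.07 CPM), PTGES (4.25 CPM) and MSX1 (5.55 CPM) were low. DDX20 (23.0 CPM), SKP2 (43.8 CPM), ITGB8 (61.5 CPM) and INHBA (95.5 CPM) were higher there. CRISPLD2 fell in ACHN (−0.26 ± 0.05) and rose in H226 (1.37 ± 0.17). Of the 25 falls, 20 were tested in ACHN and 11 fell there too, and the difference between lines passed for 18. Of the 25 rises, 17 were tested, 6 rose and 1 fell, and the difference passed for 16.

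**Figure D5:**
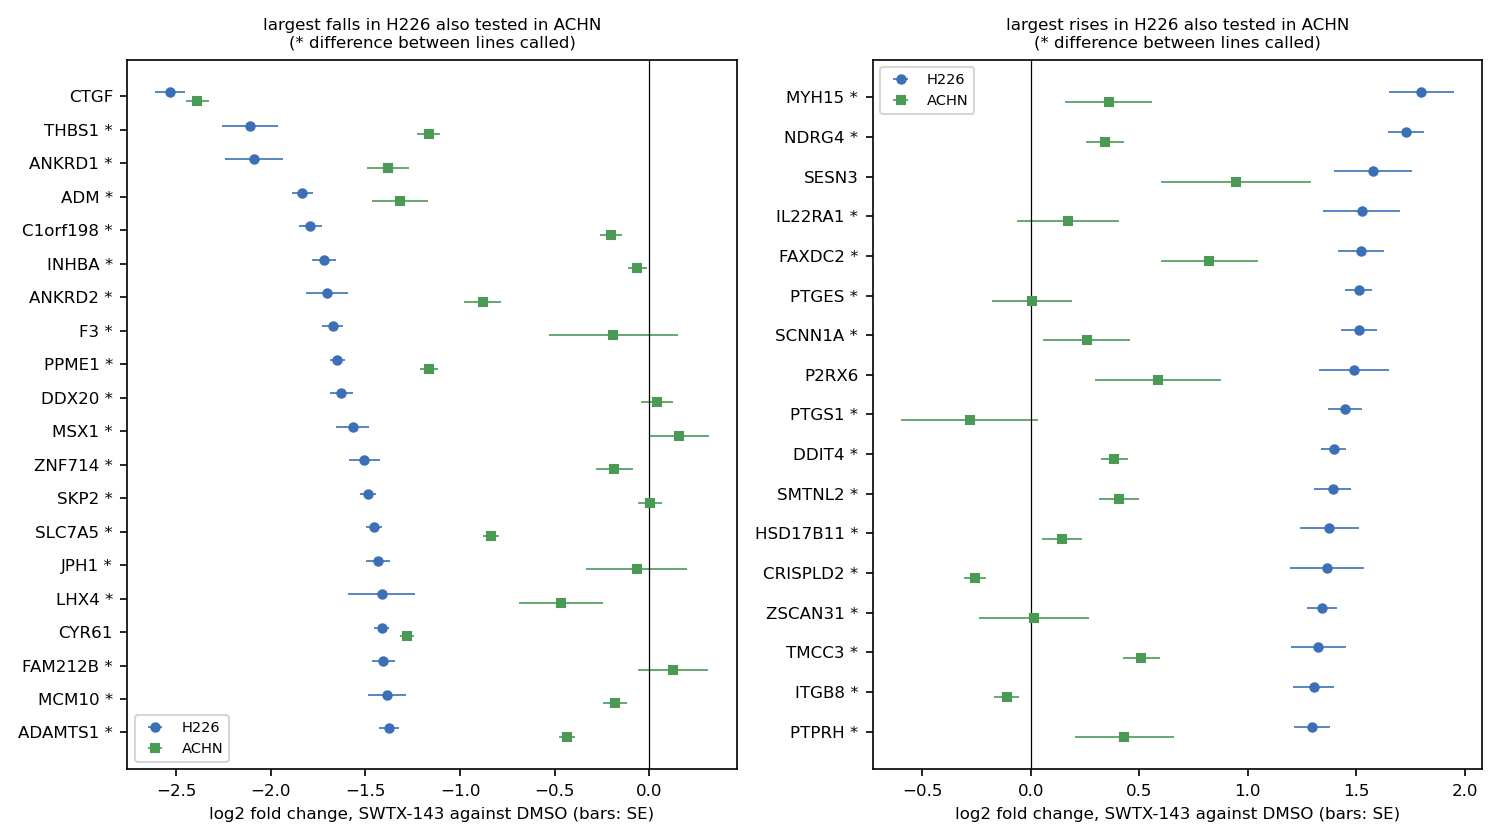
Log2 fold change under SWTX-143 (x axis, bars are SE) in H226 (blue circles) and ACHN (green squares) for the largest falls (left, 20 genes) and rises (right, 17 genes) of H226 that were also tested in ACHN. An asterisk marks genes whose difference between lines passed the test; CTGF and CYR61 lie close together in both lines, and SKP2 lies at −1.49 in H226 and near 0 in ACHN.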

How the data were processed

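The authors deposited raw read counts per gene symbol, whole numbers in a table of their own for H226. Per the labels, poly(A) RNA was read as paired 100-base reads on a BGISEQ-500. Tools listed in the submitters' processing notes are FastQC, cutadapt and STAR 2.6.1d, with hg19 (GRCh37) as build. How reads were assigned to genes, with or without strand, and by which annotation is not given in the sources used here. Unless strand was used, reads of overlapping genes cannot be separated, and partners at 20% or more of a gene's level are named beside it.

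From these counts, edgeR 4.0.16 (R 4.3.3) kept 13484 genes by filterByExpr, scaled libraries by TMM (factors 0.981 to 1.016) and fitted treated against DMSO in the 6 H226 libraries with robust quasi-likelihood F tests, with Benjamini-Hochberg adjustment across all of them and 0.05 as the limit. CPM used TMM library sizes. SE is the absolute log2 fold change divided by the square root of F. The biological coefficient of variation was 3.98%. A joint fit of 12 libraries gave the difference between lines. Alternatives were RLE, upper-quartile and library-size scaling, 2 other filters, DESeq2 1.42.0, limma 3.58.1 with voom, the joint fit, a replicate block and leaving out each library. On simulated counts, the H226 fit recovered 62 of 68 genes changed by 0.5 on the log2 scale, 64 of 64 changed by 1 and 68 of 68 changed by 2, and called 11 unchanged genes. Only these genes, all at 5 CPM or more, were changed, and counts were drawn independently at the fitted dispersion. The simulation therefore does not measure recovery at lower levels, with an uneven library or with as many changed genes as were called here.

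Genes named were the 25 largest falls and rises among called genes with at least 5 CPM and no overlap of groups (clone-type names and pseudogenes passed over), the 10 largest CPM changes each way, up to 4 called members with the smallest p per role of 34 gene lists, the TEAD and YAP factors, and the 6 largest differences between lines each way. A few of these results are not reported here. Members and lists were chosen with earlier results of these data known, lists share some members, and their counts and medians are descriptions. Of 27064 symbols, 25616 matched RefSeq, and 10623 tested genes had a promoter window.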

Additional observations from a re-analysis of the deposited data

Results flagged for a closer look

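For 34 of the 50 largest changes in H226, the effect of SWTX-143 differed between the lines by the test of the difference itself (H226 effect minus ACHN effect, log2 scale, edgeR, adjusted p of at most 0.048). Since these genes were ranked by their size in H226, the signs of the differences follow the choice. Genes that fell in both lines, and by more in H226, were THBS1 (difference −0.95), ANKRD1 (−0.71), ANKRD2 (−0.83), ADM (−0.52), PPME1 (−0.49), SLC7A5 (−0.62), ADAMTS1 (−0.95), MCM10 (−1.21) and C1orf198 (−1.59). Genes that fell in H226 and were not called in ACHN were MSX1 (−1.73), DDX20 (−1.67), INHBA (−1.66), FAM212B (−1.53), SKP2 (−1.495), F3 (−1.49), JPH1 (−1.37), ZNF714 (−1.33) and LHX4 (−0.95). Some of them were low in ACHN DMSO libraries: F3 averaged 1.35, JPH1 2.04, LHX4 3.38, FAM212B 4.07 and MSX1 5.55 CPM. ZNF714 averaged 19.6, DDX20 23.0, SKP2 43.8 and INHBA 95.5 CPM there.

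Among the rises, NDRG4 (1.38), DDIT4 (1.003), SMTNL2 (0.98), TMCC3 (0.81) and FAXDC2 (0.69) rose in both lines, and CRISPLD2 (1.62) rose in H226 and fell in ACHN. PTGS1 (1.73), PTGES (1.499), MYH15 (1.43), ITGB8 (1.41), IL22RA1 (1.35), ZSCAN31 (1.32), SCNN1A (1.247), HSD17B11 (1.23) and PTPRH (0.86) were not called in ACHN. Of these, only HSD17B11 (17.8 CPM) and ITGB8 (61.5 CPM) were above 5 CPM in ACHN DMSO libraries, and the others ran from 1.47 CPM (PTGS1) to 4.25 CPM (PTGES). FBXO32 (1.61) had too few counts in ACHN for a test of its own there.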

How the results depend on the processing

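More genes rose than fell beyond 2-fold under every alternative run, and none of the 375 named genes reversed. Of 5617 values under alternatives, 5510 kept direction and side of the limit and 107 lost the call, in 31 genes, 22 of them with DESeq2. Nearly all named genes were picked for a large change or a small p, so their stability partly follows from that choice. DESeq2 called 2094 genes lower against 2919 and 1668 higher against 2567, and 3750 of the 5486 calls were kept. A filter of at least 5 CPM in 3 libraries left 72 lower and 88 higher by more than 2-fold against 123 and 219, with fewer low genes tested (10984). The share of calls that were lower was 53.2% with TMM, 51.3% with RLE, 41.4% with upper-quartile scaling and 43.8% with library size alone. Scaling moved the median of all genes by at most 0.05. Leaving out 1 library gave 2570 to 2826 genes lower, 2155 to 2539 higher, 125 to 139 lower and at most 262 higher by more than 2-fold, and 1780 to 2111 differences between lines.

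With the replicate number as a block, 3062 genes were lower and 2682 higher, and 5470 of the 5486 calls were kept. Deviations of same-numbered libraries correlated by −0.06, 0.18 and 0.11, and DMSO replicate 1 correlated best with treated replicate 3 (0.17), so the numbers were not treated as pairs. Among the lists, medians of growth factor ligands and amino acid transporters, among others, changed sign with scaling. Primary cilium genes had 15 called higher, 9 with DESeq2 and up to 20 under other scalings. The proteasome count of 17 lower ran from 10 to 20, and the mTORC1 list's 5 lower and the ABC transporters' 3 lower fell to as few as 2 and 0. The cause was not tested in any of these. With 3 libraries a group and 9690980 to 11262663 counts each, genes near 1 CPM were called only at large changes: the median change of called genes under 1 CPM was 1.40 on the log2 scale, against 0.21 above 500 CPM.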

Other observations

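Genes of the primary cilium, the antenna that many resting cells carry, rose more often than they fell in H226. Of 44 tested, 15 rose and 1 fell (median 0.19). IFT81, which carries tubulin along the cilium, went from 13.7, 12.8 and 13.6 to 20.1, 20.3 and 18.7 CPM (0.56 ± 0.10), and BBS2 (0.35 ± 0.06, overlapping OGFOD1) and BBS4 (0.30 ± 0.07), parts of the complex that loads ciliary membrane proteins, rose too. Sterol handling showed a similar lean: of 10 sterol and lipid ABC transporter genes and their regulators, 6 rose and 1 fell, with ABCG1, the sterol receptor NR1H3 (0.65 ± 0.13, overlapping ACP2), MYLIP (0.55 ± 0.10) and ABCA7 (0.37 ± 0.07) higher. The drug exporter ABCC3 rose from 6.47, 7.52 and 6.93 to 14.0, 13.5 and 13.6 CPM (0.97 ± 0.12). Of 32 genes of the oxidative stress response to NRF2, 11 rose (34.4%, against 19% of all tested genes) and 1 fell. NQO1 (0.28 ± 0.04) was higher, and thioredoxin reductase (TXNRD1) fell from 1326 to 981 CPM (−0.43 ± 0.04). Of 6 metallothionein genes 4 rose, among them MT2A (0.26 ± 0.05). With DESeq2 only 2 rose, MT1E and MT1X were not called, and reads of this family can be shared.

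Chromatin regulators were counted by class. Of 16 histone demethylases 8 rose and 1 fell, with KDM6B from 27.9 to 44.4 CPM (0.68 ± 0.10) and KDM5B (0.35 ± 0.07) higher and KDM1A (−0.23 ± 0.05) lower, and of 16 deacetylases 6 rose and 1 fell, with HDAC5 from 10.5, 10.8 and 11.3 to 18.3, 20.9 and 22.0 CPM (0.91 ± 0.10) higher and HDAC2 (−0.31 ± 0.05) lower. Of 17 Polycomb genes 3 fell and 2 rose, and of 9 cytosine methylation genes 3 fell and 1 rose. The Polycomb shares, 17.6% and 11.8%, were below those of all tested genes (21.6% and 19%). Ion channel genes moved in both directions, with the sodium channel SCN9A, from 37.5 to 19.1 CPM (−0.97 ± 0.08), lower and CLIC3 (0.64 ± 0.07), STIM1 (0.40 ± 0.05) and KCNK5 (0.37 ± 0.07) higher. In promoter windows, the AP-1 letters TGANTCA were present in 9.59% of 146 genes higher by more than 2-fold, 4.82% of 83 genes lower by more than 2-fold and 4.58% of all tested genes. Among the 25 largest changes each way the order was the other way, with 3 of 20 windows of falls and 2 of 18 of rises.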
